A study of Homo sapiens with 30 samples.

Results

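The insulin-like growth factor (IGF) axis is the set of secreted factors, carriers and receptors through which IGF1, IGF2 and insulin reach a cell. IGF2 is a growth factor that cells secrete. It binds the receptor tyrosine kinase IGF1R and an isoform of the insulin receptor INSR, and the docking proteins IRS1 and IRS2 carry the signal to PI3K and AKT. The secreted IGF binding proteins hold IGF outside the cell, and depending on the protein and on its cleavage they withhold the ligand or deliver it. IGFBP7 binds IGF weakly. Active AKT keeps FOXO transcription factors out of the nucleus, and FOXO proteins switch on genes such as IRS2 and the insulin receptor gene. In bladder cancer, gain of IGF2 expression through loss of its imprint has been described.

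The 10 genes described here were IGF2, IGFBP2, IGFBP3, IGFBP4, IGFBP6, IGFBP7, IGF1R, INSR, IRS1 and IRS2, out of 58288 genes in the first deposited table and 20073 in the second. They were matched by gene name in both tables, and all 10 passed the filter on low counts in both. They were chosen by their library-scaled levels over the 10 groups, which were known beforehand, so their levels and fold changes are a description and carry no p-value. RNA was sequenced from UMUC1, an established human bladder cancer line. The series record describes it as having lost the function of UTX, the histone H3K27 demethylase encoded by KDM6A, by mutation. Every group had 3 libraries, harvested on day 3.

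In the first experiment the cells carried pSIN-puro with wild type UTX (UTX), with UTX bearing the changes H1146A and E1148A (HEAA), which are known to disable the demethylase, or with no insert (EV). Each was grown in sphere medium or in full medium. Sphere medium was MEM without serum, with B27 lacking vitamin A, 20 ng/ml FGF2 and 20 ng/ml EGF, and full medium was MEM with 10% fetal bovine serum. B27 contains insulin and serum contains IGFs, so the supply of ligand also differed between the media. Serum, growth factors, supplement and growth form changed together and cannot be told apart. In the second experiment all cells were in full medium and carried pBabe-puro with FGFR3 S249C, a mutated fibroblast growth factor receptor found in bladder cancer, or with wild type FGFR3 (WT). They also carried pCDH-blasticidin with wild type UTX or with no insert (EV). All were stable lines of the same UTX-mutant parent, so every UTX and HEAA value concerns a protein expressed from a vector. The tables of the experiments were scaled separately and the library kits differed, so levels from different experiments stand side by side only. The labels do not say whether replicates were separate cultures, so p-values cover only the spread between these libraries, and that spread may be technical.

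Promoter sequences of 8 of the 10 genes were found among RefSeq start sites on GRCh38.p14 (IGF2 and IGFBP7 are named only). Of 3 starts of IGFBP2, the one nearest the principal start is shown. The 3 windows shown belong to the binding protein genes with large differences between groups, as the 250 bases before the start. Capitals mark a GC box (GGGCGG, or CCGCCC on the other strand) or a FOXO motif (GTAAACA, or TGTTTAC on the other strand), and neither overlaps the other.
IGFBP2 (chr2:216633170-216633419, plus strand): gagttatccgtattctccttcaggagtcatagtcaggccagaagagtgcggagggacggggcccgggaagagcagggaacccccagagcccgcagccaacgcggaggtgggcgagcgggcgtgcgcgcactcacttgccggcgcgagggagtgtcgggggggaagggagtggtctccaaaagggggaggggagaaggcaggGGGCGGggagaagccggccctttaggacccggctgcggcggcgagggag
IGFBP3 (chr7:45921273-45921522, minus strand): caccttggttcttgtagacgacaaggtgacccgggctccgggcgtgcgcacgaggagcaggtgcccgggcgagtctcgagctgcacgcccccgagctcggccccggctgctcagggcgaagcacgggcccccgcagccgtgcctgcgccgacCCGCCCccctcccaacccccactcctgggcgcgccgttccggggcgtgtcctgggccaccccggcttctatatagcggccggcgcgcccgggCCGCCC
IGFBP6 (chr12:53097417-53097666, plus strand): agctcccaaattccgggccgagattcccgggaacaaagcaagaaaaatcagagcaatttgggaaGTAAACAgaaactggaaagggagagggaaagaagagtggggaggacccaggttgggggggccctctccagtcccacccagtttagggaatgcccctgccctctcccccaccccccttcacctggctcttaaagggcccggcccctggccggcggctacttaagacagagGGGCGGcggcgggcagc
The IGFBP2 window held 22 CpG dinucleotides and 1 GC box. The IGFBP3 window held 32 CpG and 2 GC boxes, with a G+C content of 76.0%. The IGFBP6 window differed from these with 9 CpG, 1 GC box and 1 FOXO motif. In GENCODE v29 the IGFBP6 gene begins at 53097436, so most of this window, with the FOXO motif, lies inside the annotated gene. No distance to a principal start was available for it. Among 35116 RefSeq windows of the same length, 42.6% held a GC box and 2.98% the FOXO motif, 10.7% held TATAAA (or TTTATA) and the median number of CpG was 11. Among the 8 genes the exact letters TATAAA (or TTTATA) were found only in the window of IGFBP4. Other spellings of a TATA box were not searched. The windows of IGF1R, INSR, IRS1 and IRS2 had 28 to 48 CpG and 2 to 5 GC boxes. A match is a description of these letters, not a binding site.

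Libraries of the first experiment held 23749352 to 40111234 counts, and those of the second 21672408 to 28290664. Levels are CPM, counts scaled to library size with TMM factors. KDM6A averaged 861, 943 and 8.18 CPM in UTX, HEAA and EV cells in sphere medium, and 579, 694 and 17.4 CPM in full medium. With FGFR3 S249C it averaged 862 CPM in UTX cells and 11.6 CPM in EV cells, and with WT FGFR3 824 CPM in UTX cells and 15.8 CPM in EV cells. FGFR3 averaged 2588 and 2322 CPM in the S249C groups (UTX and EV) and 1243 and 1301 CPM in the WT groups, so FGFR3 RNA was higher with S249C than with WT. Of 5 epithelial markers (EPCAM, CDH1, KRT8, KRT18, KRT19), all were detected in every group, and their summed level ran from 3909 to 6101 CPM. Of 5 urothelial markers (GATA3, KRT5, TP63, UPK1B, UPK2), all were detected, and their sum ran from 1090.2 to 13424 CPM. The fibroblast markers summed to 12.1 to 56.5 CPM, with COL1A2, DCN and PDGFRB at 0.42 CPM or less where present. All 5 were in the first table and only 4 in the second. The 5 leukocyte and endothelial markers summed to 5.46 to 18.7 CPM, with PTPRC at 0 in UTX sphere cells.

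IGF2, the ligand, was lower with UTX or HEAA than with EV in all 6 comparisons with EV. In sphere medium it measured 4639, 4716 and 4847 CPM in UTX cells and 3994, 3719.9 and 3798 CPM in HEAA cells, against 13161, 12482 and 13599 CPM in EV cells. The libraries of the 3 groups did not overlap, and EV cells stood highest: IGF2 took 1.18% of all counts there, against 0.462% in UTX cells and 0.371% in HEAA cells. The log2 fold change was -1.47 ± 0.03 (SE) for UTX over EV and -1.77 ± 0.04 for HEAA over EV.

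In full medium the same order held at lower levels. IGF2 measured 1756, 1881 and 1804 CPM in UTX cells and 1519, 1473 and 1532 CPM in HEAA cells, against 3036, 2904 and 3007 CPM in EV cells. The log2 fold changes over EV, -0.72 ± 0.03 for UTX and -0.98 ± 0.03 for HEAA, were smaller in size than in sphere medium. The difference between the media in this effect was -0.75 ± 0.05 for UTX and -0.79 ± 0.05 for HEAA on the log2 scale. All these comparisons share the EV libraries of their medium. Sphere over full medium, IGF2 was 2.61-fold higher in UTX cells, 2.54-fold in HEAA cells and 4.39-fold in EV cells. Over the 6 groups the order was EV sphere, UTX sphere, HEAA sphere, EV full, UTX full and HEAA full, and no neighbours in it overlapped.

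The second experiment gave the same direction with another vector. With FGFR3 S249C, IGF2 measured 1565, 1533 and 1550.1 CPM in UTX cells, against 1834, 2278 and 2108 CPM in EV cells. With WT FGFR3 it measured 1813, 1664 and 1557 CPM in UTX cells, against 2503, 2781 and 2715 CPM in EV cells. UTX libraries lay below EV libraries in both backgrounds, with log2 fold changes of -0.42 ± 0.07 for S249C and -0.67 ± 0.07 for WT. S249C over WT, IGF2 was lower in EV cells (-0.36 ± 0.07) and overlapped in UTX cells (-0.12 ± 0.07).

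IGF2 lies on chromosome 11 (2129112 to 2149603, minus strand, GRCh38). H19, an imprinted noncoding RNA gene in the same region (1995176 to 2001470), was tested as a gene of the pathway list. It averaged 4.06 ± 0.73 CPM in UTX, 7.34 ± 0.48 CPM in HEAA and 34.2 ± 3.75 CPM in EV sphere cells (SD, n = 3 each). The full medium means were 0.47, 0.81 and 1.78 CPM in the same order. H19 fell with UTX in sphere medium (log2 fold change -3.08 ± 0.11, adjusted p = 1.82e-15) and in full medium (-1.94 ± 0.23, adjusted p = 2.43e-07). In EV cells it rose in sphere over full medium (4.26 ± 0.12, adjusted p = 3.22e-18). It also fell with UTX beside S249C, at 0.28 against 0.65 CPM (adjusted p = 0.0179, and 0.0642 to 0.0757 without S249C EV replicate 3, UTX replicate 1 or UTX replicate 2), and beside WT FGFR3, at 0.16 against 1.02 CPM (adjusted p = 0.000126). H19 and IGF2 thus had the same direction in these comparisons, in the same libraries. Between UTX and HEAA cells their means went opposite ways in both media. H19 was lower in UTX than in HEAA cells, though under 1 CPM in both in full medium. IGF2 was higher in UTX cells, at 4734 against 3837 CPM in sphere and 1814 against 1508 CPM in full medium. IGF2-AS, an antisense RNA that overlaps IGF2, averaged 3.72, 3.27 and 10.8 CPM in UTX, HEAA and EV sphere cells. In full medium it averaged 4.43, 3.46 and 7.80 CPM in the same order, so only in EV cells was its mean clearly higher in sphere medium. The sources used here do not say whether counting used strand, so IGF2-AS reads cannot be told apart from those of IGF2. INS, which lies beside IGF2, did not exceed a mean of 0.14 CPM, and IGF1 was at 0 counts in all 18 libraries of the first experiment.

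The 5 urothelial markers summed highest in EV cells in each medium, as IGF2 did, but lay lower in UTX than in HEAA cells, where IGF2 was higher in UTX cells. The sums ran from 3760.1 to 4077 CPM in UTX, 6492 to 6825 CPM in HEAA and 12482 to 13424 CPM in EV sphere cells. In full medium they ran from 1090.2 to 1119 CPM in UTX, 1310.0 to 1379 CPM in HEAA and 2951 to 3133 CPM in EV cells. KRT5, a basal keratin, made up most of these sums in the sphere and EV groups. UPK1B and UPK2, uroplakins of the same list, ran the other way. UPK1B averaged 384, 292 and 145 CPM in UTX, HEAA and EV sphere cells, and 738, 668 and 530.4 CPM in the same order in full medium. UPK2 averaged 8.70, 5.28 and 2.27 CPM in sphere medium and 30.2, 21.8 and 16.1 CPM in full medium. The part of these markers in the IGF2 result was not tested, and in bulk RNA fewer cells of a type and less RNA per cell cannot be told apart.

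**Figure D1:**
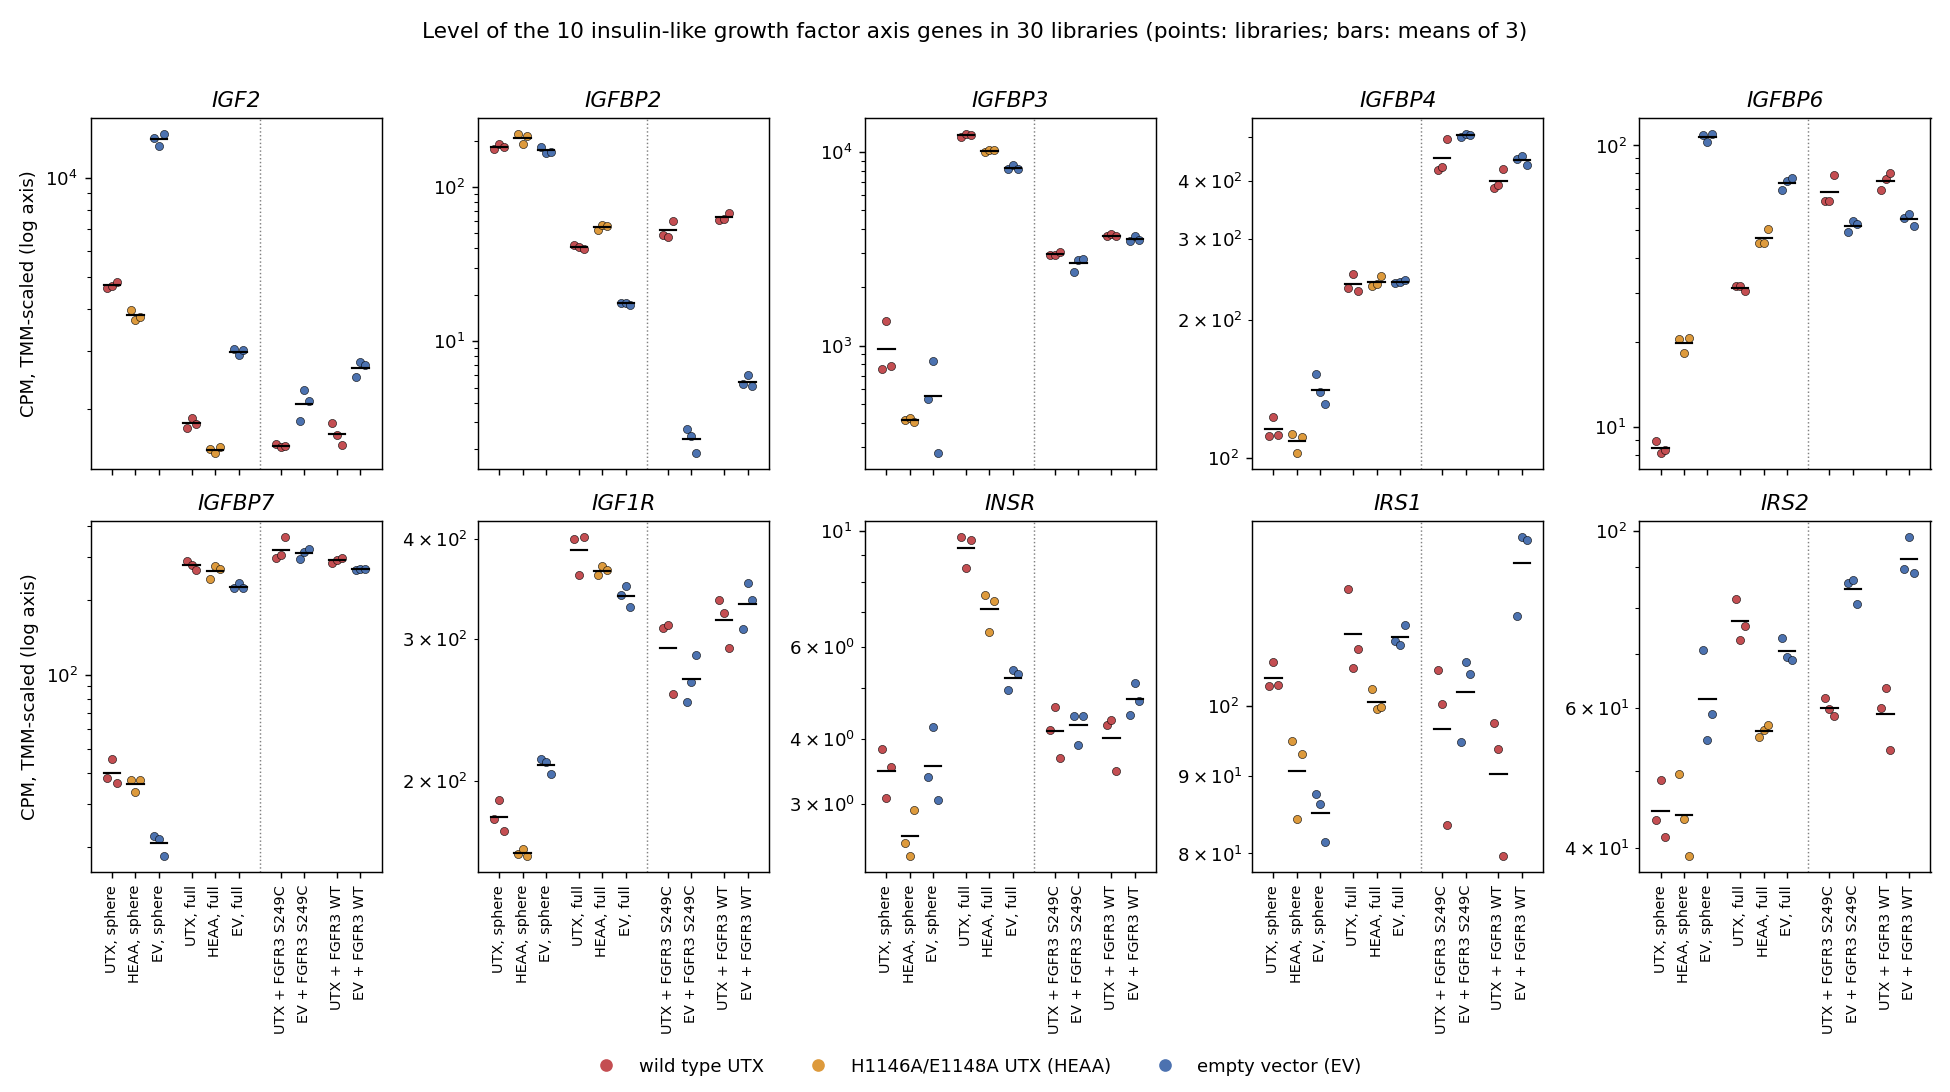
TMM-scaled CPM (log axis, each gene with its own range) of the 10 genes in the 30 libraries; points are libraries, bars are means of 3, colours give the UTX insert, and a dotted line parts the separately scaled experiments. IGF2 was highest in EV sphere cells (12482 to 13599 CPM), and IGFBP2 in the second experiment was at 1.89 to 6.04 CPM in EV cells and 47.1 to 68.2 CPM in UTX cells.

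IGFBP2, a secreted IGF carrier that is often raised in tumours, was low in EV cells in full medium and higher with UTX, with HEAA and in sphere medium. Full medium libraries had 41.9, 40.8 and 39.5 CPM in UTX cells and 52.7, 56.6 and 55.7 CPM in HEAA cells, against 17.8, 17.8 and 17.3 CPM in EV cells. The groups lay apart, at 2.31-fold over EV for UTX (log2 1.21 ± 0.06) and 3.12-fold for HEAA (1.64 ± 0.06). Sphere medium libraries had 177, 189 and 182 CPM in UTX cells and 222, 190.4 and 215 CPM in HEAA cells, against 183, 167 and 168 CPM in EV cells. There UTX and EV libraries overlapped (0.08 ± 0.05), and HEAA libraries lay above EV (0.28 ± 0.05). Between the media the UTX effect differed by -1.13 ± 0.08 and the HEAA effect by -1.36 ± 0.08 on the log2 scale. In EV cells IGFBP2 was 9.80-fold higher in sphere than in full medium.

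Beside the FGFR3 vectors IGFBP2 showed the largest fold change of the 10 genes. With FGFR3 S249C it measured 49.1, 47.1 and 60.5 CPM in UTX cells, against 2.71, 2.42 and 1.89 CPM in EV cells. With WT FGFR3 it measured 61.4, 61.9 and 68.2 CPM in UTX cells, against 5.26, 6.04 and 5.13 CPM in EV cells. That was 22.3-fold higher with UTX in S249C cells (log2 4.48 ± 0.13) and 11.6-fold in WT cells (3.54 ± 0.11), a difference of 0.94 ± 0.19. S249C over WT, it was 2.34-fold lower in EV cells and 1.22-fold lower in UTX cells, with no overlap in either. IGFBP2 lies on chromosome 2 (216632828 to 216664436, plus strand), and IGFBP5, its neighbour (216672105 to 216695525, minus strand), had group means of 0.01 to 0.63 CPM in the first experiment.

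IGFBP3, the main IGF carrier of serum and a gene induced by p53 and TGF-beta, was high in full medium and low in sphere medium. Full medium libraries had 12016, 12434 and 12207 CPM in UTX cells and 10004, 10188 and 10269.9 CPM in HEAA cells, against 8123, 8557 and 8205 CPM in EV cells. IGFBP3 took 1.30% of all counts in UTX, 1.08% in HEAA and 0.853% in EV cells, and the groups did not overlap. The log2 fold changes were 0.56 ± 0.23 for UTX and 0.29 ± 0.23 for HEAA over EV, and the SE comes from a spread that the fit shares with the sphere libraries.

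In sphere medium IGFBP3 measured 754, 1332 and 787 CPM in UTX cells and 412, 421 and 405 CPM in HEAA cells, against 532, 832 and 279 CPM in EV cells. The UTX libraries lay above HEAA and overlapped EV, and the EV libraries spanned those of HEAA. UTX over EV, the log2 fold change was 0.81 ± 0.23, and 0.49 without UTX replicate 2 or 1.24 without EV replicate 2. HEAA over EV, it was -0.41 ± 0.23, and 0.04 without EV replicate 2. The direction of HEAA over EV thus rested on that library. Sphere over full medium, IGFBP3 was 12.8-fold lower in UTX, 24.6-fold lower in HEAA and 15.2-fold lower in EV cells.

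With FGFR3 S249C, IGFBP3 measured 2942, 2923 and 3043 CPM in UTX cells, against 2404, 2778 and 2809 CPM in EV cells, which lay below. With WT FGFR3 it measured 3661, 3778 and 3662 CPM in UTX cells, against 3452, 3679 and 3523 CPM in EV cells, with overlap. S249C lay below WT in UTX cells (-0.32 ± 0.05) and in EV cells (-0.41 ± 0.05). IGFBP3 lies on chromosome 7 (45912245 to 45921874, minus strand) beside IGFBP1 (45888357 to 45893668, plus strand), which is known as an insulin-repressed FOXO target of liver. IGFBP1 did not exceed a group mean of 0.54 CPM in either experiment.

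IGFBP6, a carrier that prefers IGF2 over IGF1, had the strongest dependence on UTX in sphere medium and the opposite direction in the second experiment. In sphere medium it measured 8.95, 8.11 and 8.30 CPM in UTX cells and 20.6, 18.3 and 20.7 CPM in HEAA cells, against 109, 103 and 110.2 CPM in EV cells. The groups lay far apart: 12.7-fold lower with UTX (log2 -3.67 ± 0.06) and 5.37-fold lower with HEAA (-2.43 ± 0.05). Full medium libraries had 31.8, 31.6 and 30.3 CPM in UTX cells and 45.1, 45.1 and 50.5 CPM in HEAA cells, against 69.6, 75.0 and 76.9 CPM in EV cells. It was lower there too, with log2 fold changes of -1.24 ± 0.05 for UTX and -0.65 ± 0.05 for HEAA. The medium effect had opposite signs: sphere over full medium was -1.88 ± 0.07 in UTX and -1.23 ± 0.06 in HEAA cells, and 0.54 ± 0.05 in EV cells.

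Beside the FGFR3 vectors IGFBP6 was higher with UTX. With S249C it measured 63.7, 63.6 and 78.4 CPM in UTX cells, against 49.4, 53.9 and 52.8 CPM in EV cells (log2 0.40 ± 0.08). With WT FGFR3 it measured 69.4, 75.8 and 79.8 CPM in UTX cells, against 55.3, 56.9 and 51.8 CPM in EV cells (0.46 ± 0.08). All UTX libraries lay above the EV libraries of their FGFR3 form. The experiments differ in vectors, FGFR3 and library kit, which cannot be told apart.

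IGFBP7, a basement membrane protein of the same family, was higher with UTX and HEAA in the first experiment and much lower in sphere medium. It measured 38.2, 45.3 and 36.5 CPM in UTX, 37.5, 33.4 and 37.6 CPM in HEAA, and 22.3, 21.5 and 18.4 CPM in EV sphere cells. In full medium the ranges were 264 to 289 CPM in UTX, 243 to 275 CPM in HEAA and 224 to 234 CPM in EV cells. UTX and HEAA libraries lay above EV in both media, with log2 fold changes of 0.95 and 0.81 in sphere medium and 0.29 and 0.20 in full medium. Sphere over full medium, IGFBP7 was 6.93-fold lower in UTX, 7.23-fold in HEAA and 11-fold in EV cells. Over the second experiment it ran from 266 to 361 CPM over the 4 groups. The 5 fibroblast markers summed to 12.1 to 13.8 CPM in EV sphere cells and 44.0 to 53.9 CPM in EV full cells. LUM alone carried that difference (1.05 and 41.9 CPM), while COL1A1 averaged 11.5 CPM in EV sphere and 5.31 CPM in EV full cells, and DCN, PDGFRB and COL1A2 stayed under 1 CPM in both. Their part in the IGFBP7 values was not tested.

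IGFBP4, a carrier cleaved by the protease PAPPA, hardly differed between UTX, HEAA and EV cells in full medium. In full medium it averaged 239 ± 10.9 CPM in UTX, 242 ± 6.2 CPM in HEAA and 242 ± 1.97 CPM in EV cells (SD, n = 3 each), with overlap. In sphere medium the means were 116, 109 and 141 CPM, and UTX and HEAA libraries lay below EV. UTX libraries also lay below EV with each FGFR3 form, by -0.17 ± 0.06 for S249C and -0.15 ± 0.06 for WT. PAPPA and PAPPA2, which cut IGFBP4 and other carriers, had group means of 0.15 CPM or less in the first experiment.

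Levels of different genes can be set side by side only per length, as CPM per kb of merged exon bases (GENCODE v29). On that scale IGF2 averaged 678 in UTX, 550 in HEAA and 1874 in EV sphere cells, and 260 in UTX, 216 in HEAA and 427 in EV full cells. IGFBP3 averaged 364, 157 and 208 CPM per kb in UTX, HEAA and EV sphere cells, and 4641, 3856 and 3150.4 CPM per kb in the full medium groups. Per length, IGF2 was thus above every carrier in sphere medium, and IGFBP3 above every other member in full medium. The ratio of IGF2 to the sum of the 5 carriers put this in 1 value. It was 1.25 ± 0.26 in UTX, 1.47 ± 0.02 in HEAA and 4.12 ± 1.13 in EV sphere cells (SD, n = 3). The full medium ratios were 0.0525 ± 0.0010 in UTX, 0.0517 ± 0.0014 in HEAA and 0.124 ± 0.006 in EV cells. The lowest EV library lay above the highest UTX and HEAA library in each medium, at 3.11 against 1.41 and 1.49 in sphere medium.

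Beside the FGFR3 vectors the ratio was 0.140 ± 0.006 in UTX and 0.204 ± 0.012 in EV cells with S249C, and 0.130 ± 0.012 in UTX and 0.219 ± 0.008 in EV cells with WT FGFR3. It was lower with UTX in each of the 4 pairs of groups. IGFBP3 made up 93.7% of the carrier sum in UTX, 92.2% in HEAA and 91.3% in EV full cells, so there the ratio was in large part IGF2 over IGFBP3. In sphere medium its share was 63.9%, 41.9% and 42.0%, with 29% to 55% over the EV libraries. These are ratios of RNA levels, and secreted protein and the ligand and carriers in serum were not measured.

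**Figure D2:**
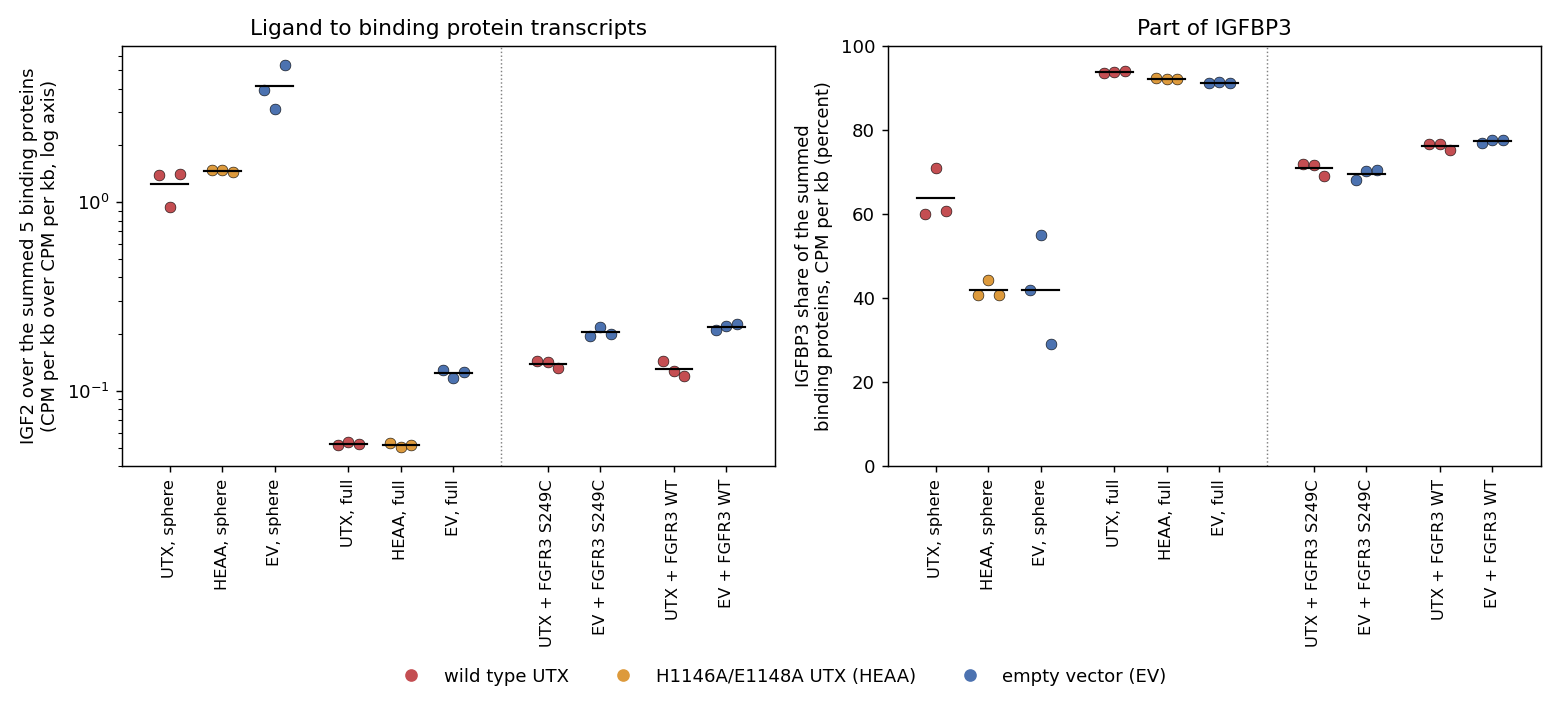
Left, IGF2 over the summed 5 carriers (IGFBP2, IGFBP3, IGFBP4, IGFBP6, IGFBP7), each in CPM per kb, on a log axis; right, the IGFBP3 share of that sum in percent. Points are libraries and bars are means of 3: the ratio was 3.11 to 5.34 in EV sphere cells, 0.948 to 1.41 in UTX sphere cells and near 0.05 in UTX full cells.

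IGF1R, the receptor tyrosine kinase for IGF1 and IGF2, was lower in sphere than in full medium in each genotype. In sphere medium it measured 179, 189 and 173 CPM in UTX and 162, 165 and 161 CPM in HEAA, against 213, 211 and 204 CPM in EV cells. Full medium libraries had 399, 359.9 and 402 CPM in UTX and 360.3, 369 and 365 CPM in HEAA, against 341, 349 and 329 CPM in EV cells. The order turned with the medium: UTX and HEAA lay below EV in sphere medium (-0.21 ± 0.04 and -0.36 ± 0.04) and above it in full medium (0.19 ± 0.04 and 0.10 ± 0.04). The differences between the media were -0.40 ± 0.06 for UTX and -0.47 ± 0.06 for HEAA. Over the second experiment IGF1R ran from 251 to 352 CPM, and UTX and EV libraries overlapped with each FGFR3 form.

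INSR, the insulin receptor, had the lowest level per length of the 10 genes. In full medium it measured 9.73, 8.51 and 9.62 CPM in UTX and 7.55, 6.40 and 7.34 CPM in HEAA, against 4.96, 5.42 and 5.31 CPM in EV cells. The groups lay apart, at 1.78-fold for UTX and 1.36-fold for HEAA over EV. Sphere medium libraries had 3.82, 3.07 and 3.53 CPM in UTX and 2.52, 2.38 and 2.92 CPM in HEAA, against 3.37, 4.21 and 3.04 CPM in EV cells. UTX overlapped EV there, and HEAA lay below it (-0.43 ± 0.13). With WT FGFR3 UTX lay below EV, at 3.47 to 4.33 CPM against 4.44 to 5.12 CPM (-0.25 ± 0.13), and overlapped it with S249C (-0.04 ± 0.12). Per length, IGF1R averaged 31.6 CPM per kb and INSR 1.02 CPM per kb in UTX full cells, and 27.8 and 0.58 CPM per kb in EV full cells.

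IGF2R, the scavenger receptor that takes IGF2 into the cell for breakdown, is not among the 10 and was tested. It belongs to the pathway list and is named here after its values were seen. It averaged 245 CPM in UTX, 225 CPM in HEAA and 184 CPM in EV sphere cells, and 201, 197 and 129 CPM in the full medium groups. It rose in sphere medium with UTX (0.42 ± 0.05, adjusted p = 1.80e-07) and HEAA (0.30 ± 0.05, adjusted p = 2.52e-05). In full medium it rose by 0.64 ± 0.05 with UTX (adjusted p = 1.82e-10) and by 0.60 ± 0.05 with HEAA (adjusted p = 8.93e-10). With UTX or HEAA over EV its direction was opposite to that of IGF2 in both media, whereas over the media both had higher means in sphere cells. With S249C it rose by 0.21 ± 0.07 (adjusted p = 0.0376, but 0.0529 to 0.166 in 6 alternatives: only these groups, the replicate block, or without replicate 1 or 2 of either group), and with WT FGFR3 it gave 0.00 ± 0.07 (adjusted p = 0.996).

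IRS2, a docking protein that FOXO factors induce, was lower in sphere medium with UTX and HEAA and lower with UTX in the second experiment. In sphere medium it measured 43.4, 48.8 and 41.3 CPM in UTX and 49.5, 43.5 and 39.1 CPM in HEAA, against 70.9, 54.6 and 58.9 CPM in EV cells. In full medium HEAA lay below, at 55.1 to 57.1 CPM, while UTX, at 72.9 to 82.0 CPM, overlapped EV, at 68.9 to 73.3 CPM. With S249C it measured 61.6, 59.7 and 58.5 CPM in UTX, against 85.9, 86.7 and 81.1 CPM in EV cells. With WT FGFR3 it measured 60.0, 63.5 and 53.1 CPM in UTX, against 89.6, 98.2 and 88.5 CPM in EV cells. Both FGFR3 forms thus had separate groups, with log2 fold changes of -0.50 ± 0.06 and -0.65 ± 0.06.

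IRS1, the other docking protein, lay apart between UTX and EV cells in some settings and overlapped in others. It averaged 104 ± 2.18 CPM in UTX, 90.7 ± 5.65 CPM in HEAA and 85.1 ± 3.20 CPM in EV sphere cells, and 111 ± 7.01, 101 ± 1.73 and 111 ± 1.72 CPM in the full medium groups (SD, n = 3 each). UTX lay above EV in sphere medium (0.30 ± 0.05) and overlapped it in full medium (0.01 ± 0.05). With WT FGFR3 it measured 97.4, 93.6 and 79.7 CPM in UTX, against 115, 129 and 129 CPM in EV cells, with no overlap. With S249C the groups overlapped, at 83.5 to 106 CPM in UTX and 94.7 to 107 CPM in EV cells.

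**Figure D3:**
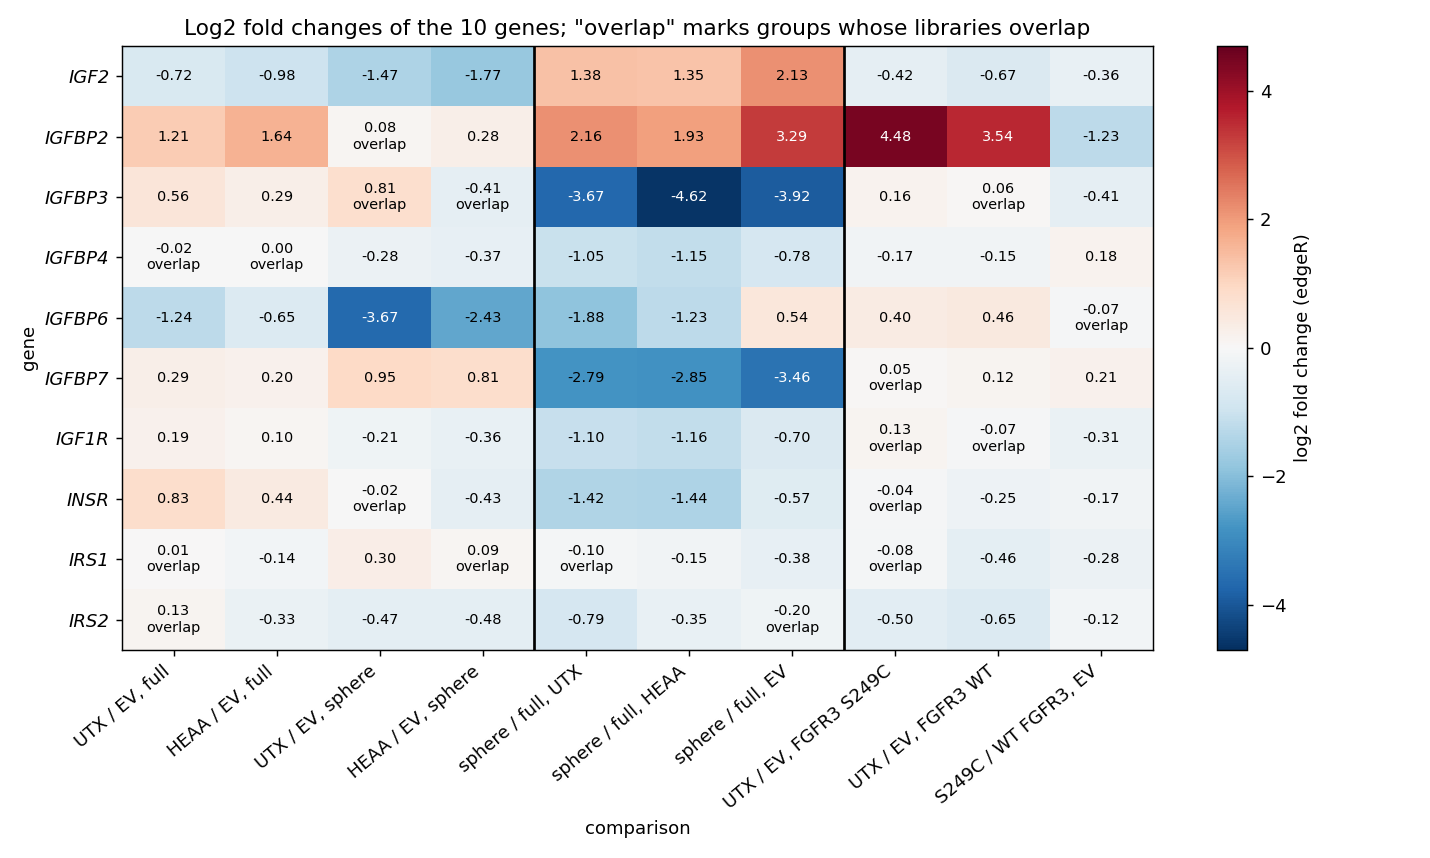
Log2 fold changes of the 10 genes (rows) in 10 comparisons (columns, first group over the second); colour and number give the value, and "overlap" marks groups whose 3 libraries were not all above or below the other 3. IGF2 was negative in all 6 UTX or HEAA columns, -0.42 to -1.77, and IGFBP6 was negative in the 4 of the first experiment and 0.40 and 0.46 in the second.

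The mutant UTX and the wild type can be compared directly. In sphere medium UTX lay above HEAA for IGFBP3 (1.21 ± 0.23), INSR (0.41 ± 0.14), IGF2 (0.30 ± 0.03), IRS1 and IGF1R, and below it for IGFBP6 (-1.24 ± 0.08) and IGFBP2 (-0.20 ± 0.05). In full medium UTX lay above HEAA for IRS2 (0.46 ± 0.08), INSR (0.39 ± 0.11), IGF2 (0.27 ± 0.03), IGFBP3 and IRS1, and below it for IGFBP6 (-0.59 ± 0.05) and IGFBP2 (-0.43 ± 0.05). HEAA was thus farther from EV than UTX was for IGF2 and IGFBP2, and nearer to EV for IGFBP6. KDM6A RNA was also lower in UTX than in HEAA cells, at 861 against 943 CPM in sphere and 579 against 694 CPM in full medium, and its part was not tested.

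The number of members past an adjusted p of 0.05 is given only beside the share of all tested genes. For UTX over EV in full medium 5 members were higher and 2 lower, against 28.4% and 29.2% of 19629 genes. For HEAA over EV in full medium it was 4 and 4, against 23.2% and 25.3%. For UTX over EV in sphere medium it was 3 and 5, against 22.8% and 25.6%, and for HEAA over EV 2 and 6, against 19.9% and 21.5%. For sphere over full medium in EV cells it was 3 and 7, against 33.1% and 32.4%. In the second experiment, of 19399 genes, UTX over EV gave 2 and 3 with WT FGFR3, against 9.06% and 6.01%, and 2 and 3 with S249C, against 12.9% and 8.62%. S249C over WT in EV cells gave 1 and 4, against 4.31% and 6.45%. Since the levels chose the members, nothing is read from these counts.

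A list of 56 other genes of the pathway (ligands, receptors, carriers and their proteases, adaptors, PI3K and AKT, brakes, mTOR, FOXO factors) was tested with edgeR, of which 45 passed the filter on low counts in the first experiment and 46 in the second. In full medium 21 of the 45 rose and 11 fell with UTX over EV, against 28.4% and 29.2% of all 19629 genes. The list median log2 fold change was 0.13, against 0.04 over all genes. With HEAA 17 rose and 10 fell, against 23.2% and 25.3% of all genes, with medians of 0.07 and 0.03. The genes with the largest rises act as brakes or regulators of PI3K. INPP5D (SHIP1), a phosphatase that removes the PI3K product, averaged 105.2 CPM in UTX and 68.8 CPM in HEAA, against 11.9 CPM in EV cells. PIK3IP1, an inhibitor of the PI3K catalytic subunit, averaged 35.4 and 23.4 CPM, against 6.38 CPM in EV cells. PIK3R3, a regulatory PI3K subunit, averaged 22.6 and 15 CPM, against 2.26 CPM in EV cells. UTX over EV, the log2 fold changes were 3.16 ± 0.08 (adjusted p = 4.68e-18), 2.47 ± 0.10 (adjusted p = 1.27e-14) and 3.32 ± 0.09 (adjusted p = 1.64e-17). FOXO4 also rose (1.28 ± 0.08) and SOCS1 too (1.03 ± 0.23), while EIF4EBP1, the translation brake downstream of mTOR, fell (-0.95 ± 0.08), with PHLPP1 (-0.58), AKT1 (-0.48) and RPS6KB1 (-0.45). With HEAA the other named rises were SOCS1 (0.78, not past the threshold without EV replicate 1 or HEAA replicate 2) and STC2 (0.73), and the named falls included H19 (-1.15), STC1 (-0.62), EIF4EBP1 (-0.59) and RPS6KB1 (-0.44). INPP5D is best known from blood cells. The 5 leukocyte and endothelial markers summed to 6.41 to 7.18 CPM in UTX and 5.46 to 6.27 CPM in EV full cells. In HEAA full cells the sum ran from 8.76 to 9.22 CPM. CD68 (3.78 against 2.38 CPM) and PECAM1 (2.36 against 1.53 CPM) had higher means in UTX than in EV full cells. PTPRC (0.07 against 0.35 CPM) and VWF (0.61 against 1.63 CPM) had lower means, and CD3E was at 0 in both. The part of these markers in the INPP5D values was not tested.

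In sphere medium 18 of the 45 rose and 15 fell with UTX, against 22.8% and 25.6% of all genes (median 0.04 against -0.01 over all genes). With HEAA 13 rose and 18 fell, against 19.9% and 21.5% of all genes (-0.04 against -0.02). INPP5D rose by 2.43 ± 0.14 with UTX and 2.43 ± 0.13 with HEAA, and PIK3R3 by 2.11 ± 0.08 and 1.73 ± 0.08. DEPTOR (1.46 and 1.05), GAB1 (1.0 and 0.95) and SOCS2 (1.05 and 0.90) followed. In sphere medium the 5 leukocyte and endothelial markers summed to 17.3 to 18.7 CPM in UTX and 15.97 to 16.8 CPM in HEAA cells. In EV sphere cells the sum was lower, at 9.45 to 11.7 CPM. The part of these markers in the INPP5D rise was not tested. STC1 and STC2, stanniocalcins that inhibit the carrier protease PAPPA, fell with UTX by 1.66 ± 0.08 and 0.86 ± 0.07, and with HEAA by 0.96 ± 0.08 and 0.47 ± 0.06. EIF4EBP1 (-0.99 with UTX) also fell, and HTRA1, a carrier protease (-0.64, but adjusted p = 0.0541 to 0.0604 with DESeq2, with no filter on low counts and without UTX replicate 1). Sphere over full medium in EV cells, 26 of 45 rose and 11 fell, against 33.1% and 32.4% of all genes (median 0.26 against -0.03). STC1 rose to 20.9 CPM in sphere cells against 1.52 CPM in full cells (3.76 ± 0.10, adjusted p = 1.19e-18), STC2 to 92.8 CPM against 22.7 CPM (2.03 ± 0.07, adjusted p = 1.49e-16), SOCS1 by 1.85 and PIK3R3 by 1.13. INPP5D (-2.11), SOCS3 (-1.06), PIK3IP1 (-1.0) and INPPL1 (-0.80) fell.

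The second experiment had fewer calls. With WT FGFR3, 7 of 46 tested rose and 7 fell with UTX, against 9.06% and 6.01% of all 19399 genes (median 0.01 against 0.00). With S249C 7 rose and 3 fell, against 12.9% and 8.62% of all genes (0.02 against -0.01). PIK3IP1 (1.15 ± 0.10 with WT, 1.26 ± 0.11 with S249C), INPP5D (1.07 ± 0.17 and 0.83 ± 0.15) and GAB1 (0.74 and 1.28) rose with both forms. HTRA1 fell to 4.11 CPM in UTX cells against 9.90 CPM in EV cells with WT (-1.26 ± 0.09, adjusted p = 1.10e-07) and to 4.53 CPM against 13.9 CPM with S249C (-1.62 ± 0.08, adjusted p = 4.81e-09). IGF2BP1, an oncofetal protein that binds IGF2 mRNA, fell in all 6 comparisons of UTX or HEAA with EV, by 0.17 to 0.42. It was named after its values were seen. IGF2BP2 and IGF2BP3 did not both follow it. With each FGFR3 form 2 of the 4 listed genes H19, IGF2BP1, IGF2BP2 and IGF2BP3 passed the threshold as lower and 0 as higher. PIK3R3, which rose in the first experiment, gave 0.11 ± 0.11 with WT (adjusted p = 0.595) and 0.10 ± 0.11 with S249C (adjusted p = 0.574). S249C over WT in EV cells, 4 rose and 7 fell, against 4.31% and 6.45% of all genes (median -0.06 against 0.00). INPP5D (0.78), HTRA1 (0.49) and SOCS3 (0.31) rose, and STC1 (-0.71), PIK3IP1 (-0.57), GAB1 (-0.53), FOXO1 (-0.29) and SOS1 (-0.27) fell. Without WT EV replicate 2 the list had 5 calls, and INPP5D, GAB1, STC1 and SOS1 were not among them. GAB1 was also lost without S249C EV replicate 3, and SOS1 without any library of these groups but WT EV replicate 1.

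A further list held 12 genes described as FOXO targets (SESN1, SESN3, CCNG2, BCL6, TXNIP, BNIP3, GADD45A, CITED2, CDKN1B, PDK4, RBL2, KLF6). In full medium 8 rose and 1 fell with UTX, against 28.4% and 29.2% of all genes (median 0.76 against 0.04 over all genes). With HEAA 6 rose and 1 fell, against 23.2% and 25.3% of all genes (0.51 against 0.03). The list counts and medians cover SESN3 and PDK4, which averaged only 0.06 to 0.86 CPM and 0.28 to 0.61 CPM in the full medium groups. CCNG2 averaged 51.6 CPM in UTX and 34.3 CPM in HEAA against 20.6 CPM in EV cells (UTX over EV 1.33 ± 0.07, adjusted p = 5.18e-13), and BNIP3 rose by 1.21 ± 0.15 and 0.99 ± 0.15. KLF6 fell by 0.61 ± 0.08 and 0.35 ± 0.08. In sphere medium 5 rose and 6 fell with UTX, against 22.8% and 25.6% of all genes (median -0.07 against -0.01). With HEAA 2 rose and 5 fell, against 19.9% and 21.5% of all genes (-0.11 against -0.02). CCNG2 was up by 0.77 with UTX and 0.58 with HEAA, and SESN3 down by 1.35 and 0.68. Tested as a difference between the media, the UTX effect was lower in sphere medium for 9 of 12 and higher for 0, and the HEAA effect lower for 6 and higher for 0. Both counts include SESN3, whose value rests on a mean of 0.06 CPM in EV full cells. Over all genes the UTX effect was lower for 16.2% and higher for 21.1%, and the HEAA effect lower for 14.3% and higher for 18.7%. Sphere over full medium in EV cells, 5 rose and 4 fell, against 33.1% and 32.4% of all genes. SESN3 averaged 9.29 CPM in sphere and 0.06 CPM in full cells (adjusted p = 3.49e-18), BCL6 rose by 1.78, and SESN1 and GADD45A fell by 1.06 and 0.67. In the second experiment, of 10 tested, UTX over EV gave 3 rises and 2 falls with WT (GADD45A 0.50, CCNG2 0.32, BCL6 -0.43, KLF6 -0.27), against 9.06% and 6.01% of all genes. With S249C it gave 3 rises and 1 fall (CCNG2 0.45, CITED2 0.42, KLF6 -0.27), against 12.9% and 8.62% of all genes. S249C over WT in EV cells gave 1 rise and 4 falls, against 4.31% and 6.45% of all genes. The rise was TXNIP (0.17, lost with any library of these groups left out), and the falls included BCL6 (-0.40) and CITED2 (-0.38). The list had 2 to 4 calls there with 1 library left out, the lowest without S249C EV replicate 3, and BCL6 was lost without S249C EV replicate 2 or 3 or WT EV replicate 1. BCL6 with UTX beside WT FGFR3 was lost without EV replicate 1 or UTX replicate 3, which left 3 calls.

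**Figure D4:**
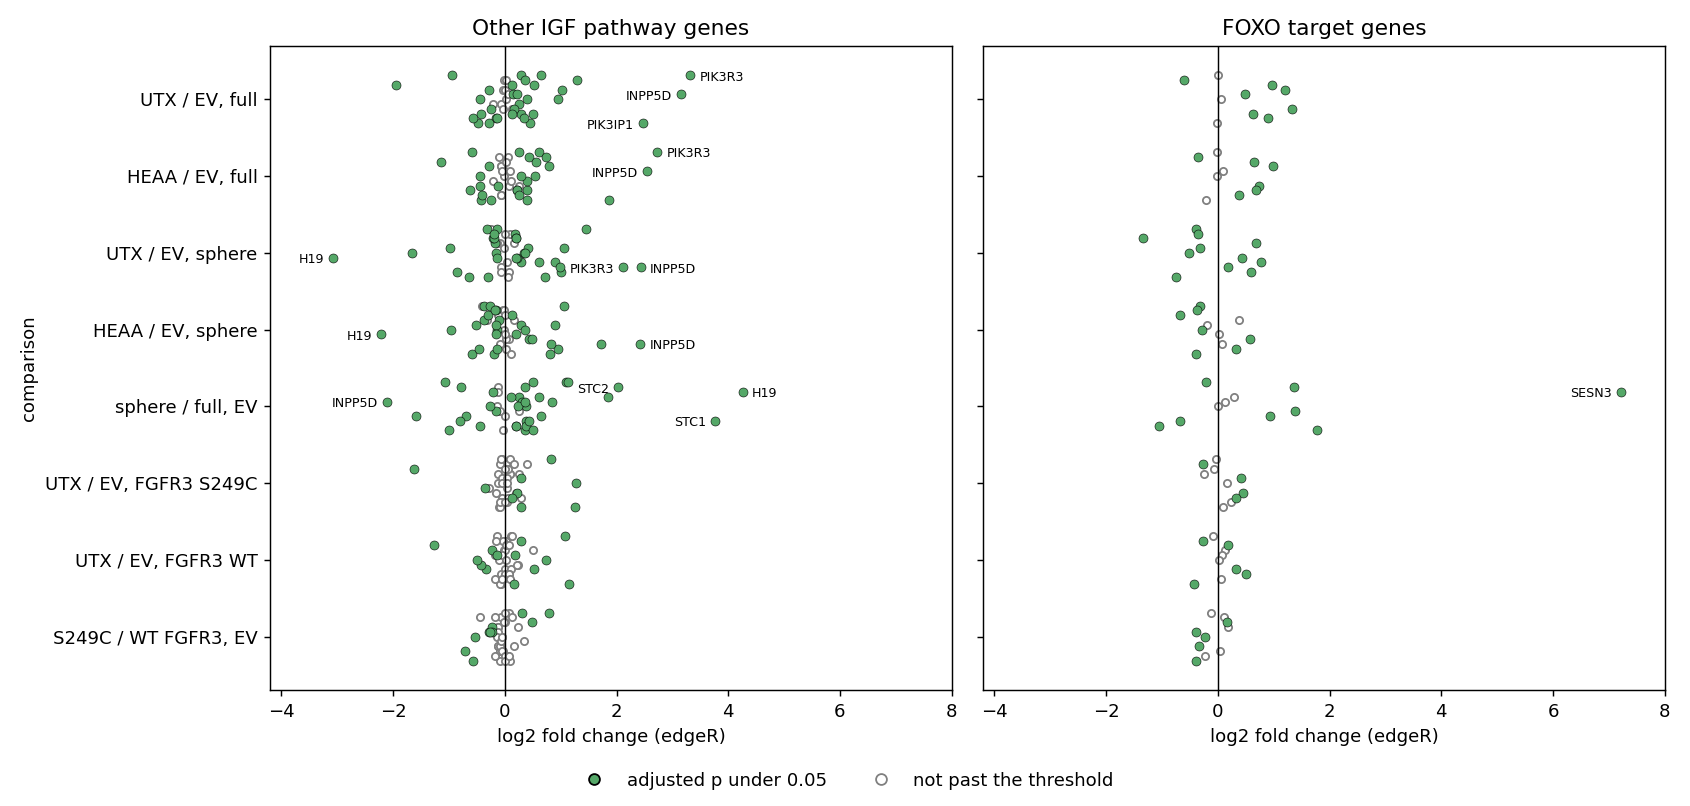
Log2 fold changes (x axis) of the other pathway genes (left) and the FOXO target genes (right) whose groups averaged 1 CPM or more, by comparison (first group over the second); each point is a gene, filled where the adjusted p was under 0.05, and genes beyond 2 are named. INPP5D and PIK3R3 stood at 3.16 and 3.32 with UTX in full medium and H19 at -3.08 in sphere medium; the SESN3 value rests on a mean of 0.06 CPM in EV full cells.

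The genes most like each member were found over the 30 libraries, as Pearson's r of log2(CPM + 1) centred within each experiment, among 12928 genes. The libraries share groups and experiments, so r mainly follows group means and is a description. IGF2 was most like CTDSP1 (r = 0.97) and THRA (0.97), at 0.99 and 0.98 within the first experiment and 0.75 and 0.80 within the second. IGFBP2 was most like MYH14 (0.97) and FXYD3 (0.96), which also gave 0.99 each within the second experiment. IGFBP3 was nearest to TGFBI (0.99) and TMCO3 (0.99), IGFBP4 to MYADM and JDP2 (0.98 each), and IGFBP7 to AXL and KRT80 (0.99 each). For IGFBP6, GLUL and ARHGAP28 (0.92 each) were nearest. Several of these likenesses were seen in the first experiment only. Within the second, r was -0.14 for TMCO3, 0.25 for AXL, -0.20 for KRT80, -0.47 for GLUL and -0.41 for ARHGAP28, against 0.79 for TGFBI, 0.69 for MYADM and 0.70 for JDP2. IGF1R was nearest to PPP1R12B and ZNF704 (0.98 each), and INSR to CICP14 (0.97), a pseudogene of a family of near-identical copies whose counts are uncertain, and PRKAB2 (0.95, but 0.34 within the second experiment). IRS1 and IRS2 had the loosest likeness, with TMEM245 (0.85) and APBA1 (0.82) for IRS1 and TOP2B (0.86) and CCNG1 (0.85) for IRS2.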

How the data were processed

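RNA-seq values were expected counts (an estimated count per gene), unscaled, as the authors deposited them, with Salmon 0.8, DESeq2 and hg19/GRCh37 named in the submitters' processing notes. How transcripts were summed to genes, and with which annotation release, is not given in the sources. Counts were rounded to whole numbers. The second table had been filtered before deposit. Rows without a name took one from a reference table. Positions and exon lengths are from GENCODE v29 on GRCh38, not the build of the notes.

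Each experiment was fitted alone with edgeR 4.0.16 in R 4.3.3 (filterByExpr, TMM factors, 1 mean per group, quasi-likelihood F test, Benjamini-Hochberg adjustment over 19629 and 19399 genes, threshold 0.05). The fit was tested on simulated data. The common biological coefficient of variation was 4.58% and 6.05%. CPM used the TMM factors. Levels are means ± SD of 3 libraries and fold changes are ± SE. Groups lay apart when all 3 libraries were above or below the other 3. Depth per library was 23749352 to 40111234 and 21672408 to 28290664 counts.

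The members and lists were chosen with earlier results of these data known. Genes named were the 10 members, up to 5 pathway genes and 2 FOXO targets each way that passed the threshold and averaged 1 CPM or more, the 2 genes most like each member, neighbours of members on their chromosome, and KDM6A and FGFR3. Outside that rule IGF1, IGF2R, IGF2BP1, IGF2-AS, PAPPA, PAPPA2 and, in the second experiment, PIK3R3 were named after their values were seen. Some genes of the pathway list are not reported here one by one. Alternatives were DESeq2 1.42.0, RLE size factors, no filter, only the 2 groups compared, a replicate block, and leaving out each library. Python 3.11.15 made the figures.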

Additional observations from a re-analysis of the deposited data

Results flagged for a closer look

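IGF1R and INSR changed direction with the medium. For IGF1R, the log2 fold change of UTX over EV was -0.21 in sphere medium and 0.19 in full medium, a difference of -0.40. For HEAA over EV it was -0.36 and 0.10, a difference of -0.47. For INSR, HEAA over EV gave -0.43 in sphere medium and 0.44 in full medium, a difference of -0.87. In each of these the 3 libraries of 1 group lay below EV in sphere medium and above it in full medium. These differences were not tested, since the levels had chosen the genes.

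STC2, a gene of the pathway list, fell with HEAA in sphere medium (-0.47) and rose with it in full medium (0.73). The difference of -1.20 passed the test in edgeR (adjusted p = 6.23e-09).

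IGFBP6 gave opposite effects of UTX in full medium in the 2 experiments: 0.46 beside WT FGFR3 in the second and -1.24 in the first, a difference of 1.70. INSR gave -0.25 and 0.83 in the same comparisons, a difference of -1.08. Neither was tested, and vector, FGFR3 and library kit cannot be told apart.

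IGFBP6 also responded to the medium in opposite directions: sphere over full medium was -1.88 in UTX and -1.23 in HEAA cells, and 0.54 in EV cells. The differences from EV were -2.42 for UTX and -1.77 for HEAA, and they were not tested for the same reason.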

How the results depend on the processing

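Of the values of the 10 genes under all alternatives, 1838 of 1910 moved by less than the spread between replicates and 72 by more, and none that lay apart turned its direction. IGFBP3 in sphere medium moved most, as given with its values. The number of genes called stayed within 1.5 times in 172 of 191 settings over all genes, in 186 of 191 for the pathway list and in 174 of 191 for the FOXO list. Of the named list genes, 2067 of 2142 values stayed past the threshold and 75 did not, with none reversed. For S249C over WT, all genes called numbered 2088 in EV cells (1124 to 1717 with 1 library left out, more than 1.5 times fewer without S249C replicate 1, WT replicate 2 or WT replicate 3). They numbered 591 in UTX cells (291 to 535, more than 1.5 times fewer without S249C replicate 2 or any WT replicate). Pathway genes numbered 11 in EV cells (5 to 11, the lowest without WT replicate 2) and 2 in UTX cells (0 to 2, the lowest without WT replicate 2, and 1 without S249C replicate 1 or WT replicate 1). FOXO genes numbered 5 in EV cells (2 to 4, the lowest without S249C replicate 3, and 3 without S249C replicate 2, WT replicate 1 or WT replicate 3) and 1 in UTX cells, which became 0 with only the 2 groups, with DESeq2, with the replicate block and with any library left out. For UTX over HEAA in full medium FOXO genes numbered 5 (3 to 5, the lowest without HEAA replicate 1), and for UTX over EV with WT FGFR3 they numbered 5 (3 to 5, the lowest without EV replicate 1 or UTX replicate 3). The interaction of UTX with the FGFR3 form called 133 genes, 80 with the replicate block and 58 to 248 with 1 library left out, the highest without UTX S249C replicate 3, and past 1.5 times without any library but EV S249C replicate 2. In it the pathway list had 0 (0 to 2, the highest without UTX S249C replicate 3) and the FOXO list 0, or 1 with RLE size factors. The causes were not tested. Same-numbered libraries of different groups deviated together little as a whole (45 pairs in the first experiment, median r -0.02, 0 over 0.1, and 18 in the second, median r -0.02, 1 over 0.1). The highest r in the second was 0.19. With both FGFR3 forms, UTX replicate 3 was the highest of its group for IGFBP2, IGFBP4, IGFBP6 and IGFBP7. It was the lowest with both for IGF1R, INSR, IRS1 and IRS2, while IGF2 and IGFBP3 showed no such match. KDM6A was also lowest in UTX replicate 3 with both forms. It was at 700 CPM there with S249C and 739 CPM with WT, where the group medians were 941 and 863 CPM. The part of this KDM6A difference was not tested. A median over pairs cannot tell whether some same-numbered libraries were handled together, and the main fit had no pairing. With the replicate block UTX over EV in full medium called 11199 genes against 11319, and 32 pathway genes against 32. Counting limits precision where counts were low, as for IGFBP2 in S249C EV cells (50 to 71 counts per library), INSR in HEAA sphere cells (56 to 97) and SESN3 in EV full cells (1 to 3).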
